A study of Homo sapiens with 2 samples.

Results

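Ribosome footprints were examined on 10 nuclear genes that encode mitochondrial chaperones, proteases and prohibitins, out of 57820 Ensembl gene IDs in the deposited table. The genes were given as a list of Ensembl IDs with symbols: HSPD1 (ENSG00000144381), HSPE1 (ENSG00000115541), HSPA9 (ENSG00000113013), TRAP1 (ENSG00000126602), LONP1 (ENSG00000196365), PHB (ENSG00000167085), PHB2 (ENSG00000215021), CLPP (ENSG00000125656), CLPX (ENSG00000166855) and AFG3L2 (ENSG00000141385). The rule that lists them names a function and uses no count, although the set was drawn up with earlier results of these data known. All 10 were found in the table by the part of the ID before the dot. The symbols rest on that list, because the RefSeq table used here gives an Ensembl ID for 0 of its 59792 genes.

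The samples were 2 ribosome profiling libraries of HEK293, a long-established line derived from human embryonic kidney. Both came from cells given DMSO vehicle for 12 h and not heat-shocked. In this assay RNase trims the mRNA that ribosomes do not cover, and the covered fragments, or footprints, are sequenced and counted per gene. Replicate 1 was labelled batch 1 and replicate 2 batch 2, so batch and replicate cannot be told apart. Minocycline-treated cells and matched RNA levels were not analysed here, and the marker genes of the cell line were not checked, because other IDs were not paired with names. The labels do not say that the libraries came from independent cultures, so the spread between them may be partly technical.

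Mitochondria import most of their proteins unfolded, and a set of matrix and inner-membrane factors folds, holds or degrades them. Chaperones of the Hsp60, Hsp70 and Hsp90 families assist folding in the matrix, and ATP-dependent proteases remove proteins that fail to fold or are no longer needed. Prohibitins form ring-shaped scaffolds in the inner membrane and associate with one of these proteases. All 10 genes are read by cytosolic ribosomes, so footprints on their coding sequences report synthesis of the precursors before import. The counts used here are per gene, and where in a gene the fragments lay was not examined.

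The table held 865838 counts in replicate 1 and 611266 in replicate 2, a ratio of 1.42. The 2 highest IDs of the table took 17.6% of counts in replicate 1 and 23.2% in replicate 2, which lowers the counts per 1000000 (CPM) of every other ID. A single count was worth 1.15 CPM in replicate 1 and 1.64 CPM in replicate 2. CPM of different genes mix how densely ribosomes sat on an mRNA with how long its coding sequence is. Coding lengths were not used here, so the order of genes below is an order of fragment counts and not of synthesis per codon.

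Footprints were counted on all 10 genes in both libraries. Together they held 1224 counts in replicate 1, or 0.141% of the library (95% exact Clopper-Pearson interval 0.134 to 0.150), and 798.5 counts in replicate 2, or 0.131% (0.122 to 0.140). The mean share was 0.136% ± 0.00759 (SD, n = 2). These intervals, like those below, cover counting error only, and PCR copies of 1 molecule can make them too narrow. Counts fell on the genes very unequally: the mean CPM of HSPD1 was 19.7 times that of CLPP, and the fold was 14.5 in replicate 1 and 34.6 in replicate 2, where CLPP had 5 counts.

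HSPD1 and HSPA9, the matrix chaperones of the Hsp60 and Hsp70 families, led the set in both libraries. HSPD1, the chaperonin whose barrel encloses folding proteins, had 289.5 counts in replicate 1 and 173 in replicate 2, or 334 and 283 CPM. HSPA9, also called mortalin, which pulls precursors through the import channel and hands them on for folding, had 295 and 167 counts, or 341 and 273 CPM. The pair averaged 309 ± 36.3 and 307 ± 47.7 CPM (SD, n = 2 each), and their order turned between the libraries. They ranked 432 and 436 by mean CPM among the 16465 IDs with any count. Between them, these 2 genes took 47.8% of the counts of all 10 in replicate 1 and 42.6% in replicate 2.

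TRAP1, the mitochondrial member of the Hsp90 family, had 128.5 counts in replicate 1 and 76.5 in replicate 2, or 148 and 125 CPM, and averaged 137 ± 16.4 CPM (SD, n = 2). HSPE1, the small cochaperonin that caps the HSPD1 barrel, was far lower in counts, with 24.5 in replicate 1 and 15 in replicate 2, or 28.3 and 24.5 CPM. Its mean was 26.4 ± 2.66 CPM (SD, n = 2), and counting error alone allowed 17.8 to 41.2 CPM in replicate 1 and 13.7 to 40.5 CPM in replicate 2. The assignment of HSPE1 counts is uncertain. In RefSeq the gene lies wholly inside the readthrough gene HSPE1-MOB4, and 28 pseudogenes carry its name, against 22 for HSPD1, 2 for HSPA9 and 0 for TRAP1. How such copies were treated in the authors' counting is not given here.

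HSPD1 and HSPE1 are neighbours that are transcribed away from each other. The 104 bases between the upstream start site of HSPD1 and that of HSPE1 are shown for this arrangement. They are from RefSeq (GRCh38.p14, chr2:197500275-197500378, strand of HSPE1), with no matched motif in capitals. Whether this stretch bears on the counts of either gene was not tested. The other stretches are shown because they hold the TTCNNGAA repeat of the heat shock element, the site that heat shock factors bind, and the cells were harvested without heat shock. They lie at chr2:197500048-197500090 for HSPD1, chr5:138575378-138575425 for HSPA9 and chr12:6970746-6970793 for PHB2, each on the minus strand of GRCh38.p14, 5′ to 3′, with the repeat in capitals.
HSPD1 to HSPE1: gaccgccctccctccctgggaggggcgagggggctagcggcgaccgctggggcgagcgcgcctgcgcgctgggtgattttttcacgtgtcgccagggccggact
HSPD1: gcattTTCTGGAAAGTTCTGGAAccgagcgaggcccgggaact
HSPA9: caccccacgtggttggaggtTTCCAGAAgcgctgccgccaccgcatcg
PHB2: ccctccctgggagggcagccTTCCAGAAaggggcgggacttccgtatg

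RefSeq windows of 300 bases, 250 before and 50 after a start site, were available for 9 of the 10 genes, all but CLPP. TTCNNGAA, which reads the same on both strands, was found in the windows of HSPD1, HSPA9 and PHB2, or 3 of 9 genes, against 9.46% of the 27305 genes of the promoter table. The match of HSPA9 began at base -4 and ran across its start site. GAANNTTC, likewise the same on both strands and overlapping TTCNNGAA where repeats follow one another, was found for HSPD1 alone among the 9, against 8.21% of genes. In HSPD1 these repeats overlapped in a single run of 4 blocks, TTC and GAA by turns with 2 bases between blocks, which began at base -245 relative to its downstream start site. The run lies at chr2:197500068-197500085, and so downstream of the upstream start site of this gene, at 197500274 on the minus strand. Runs of 4 such blocks were found for HSPD1 alone among the 9, against 12 of 27305 genes, or 0.0439% (12 of 35116 windows, or 0.0342%). The motif was chosen after the windows were seen, and a match is a run of letters, not a measured binding site. The counts of these libraries do not measure the activity of any promoter.

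**Figure D1:**
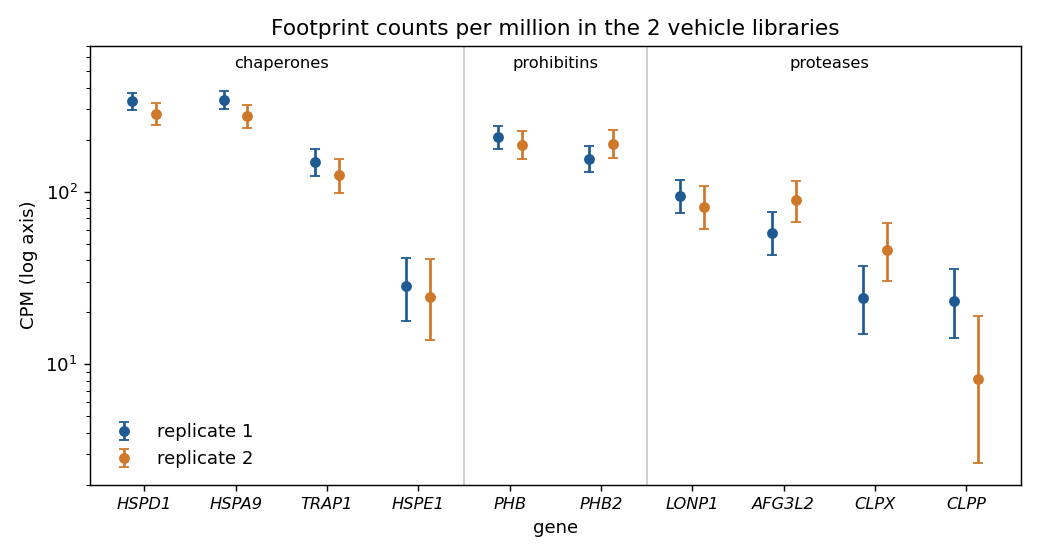
Footprint CPM (log axis) of each of the 10 genes, with replicate 1 as blue points and replicate 2 as orange points and 95% exact Poisson intervals as bars. HSPD1 and HSPA9 lie between 273 and 341 CPM, and CLPP lies lowest, at 23.1 CPM in replicate 1 and 8.18 CPM in replicate 2.

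The prohibitins PHB and PHB2, which alternate in the same ring, were the next most counted genes. PHB had 179 counts in replicate 1 and 113.5 in replicate 2, or 207 and 186 CPM. PHB2 had 134.5 and 116 counts, or 155 and 190 CPM. PHB was higher than PHB2 in replicate 1 and slightly lower in replicate 2, and the means of 196 ± 14.9 and 173 ± 24.3 CPM (SD, n = 2 each) differed by less than the larger SD. PHB varied least between the libraries of all 10 genes, with a coefficient of variation of 7.59%. RefSeq, where PHB is listed as PHB1, has 21 pseudogenes by that name and 1 by that of PHB2, and the small RNA gene SCARNA12 overlaps PHB2. Small RNA genes also overlap HSPD1 (SNORA105B) and HSPA9 (SNORD63 and SNORD63B).

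The protease genes were counted less often than the prohibitins. LONP1, the matrix protease that degrades oxidised and misfolded proteins, had 82 counts in replicate 1 and 50 in replicate 2, or 94.7 and 81.8 CPM. AFG3L2, a subunit of the m-AAA protease of the inner membrane with which prohibitins associate, had 50 and 54.5 counts, or 57.7 and 89.2 CPM. LONP1 averaged 88.3 ± 9.13 CPM and AFG3L2 73.5 ± 22.2 CPM (SD, n = 2 each). LONP1 was ahead in replicate 1 and AFG3L2 in replicate 2, so their values overlapped.

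CLPX and CLPP form the other matrix protease, in which CLPX unfolds substrates and feeds them into the chamber made by CLPP. CLPX had 21 counts in replicate 1 and 28 in replicate 2, or 24.3 and 45.8 CPM. CLPP had 20 counts in replicate 1 and 5 in replicate 2, or 23.1 and 8.18 CPM, and was lowest of the 10 in both libraries. The 2 genes moved in opposite directions between the libraries, with coefficients of variation of 43.5% for CLPX and 67.5% for CLPP. At 5 counts, the exact Poisson interval of CLPP in replicate 2 ran from 2.66 to 19.1 CPM.

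By mean CPM the order was HSPD1, HSPA9, PHB, PHB2, TRAP1, LONP1, AFG3L2, CLPX, HSPE1 and CLPP. Neighbours in this order were taken as not told apart where their means differed by less than the larger SD or their values overlapped. That held for HSPD1 and HSPA9, for PHB and PHB2, for LONP1 and AFG3L2, and for CLPX and HSPE1. The other 5 steps were larger than that spread, the smallest being 10.8 CPM between HSPE1 and CLPP against an SD of 10.5. This rule leaves out counting error. The Poisson intervals of HSPE1 and CLPP overlapped in both libraries. Those of PHB2 (130 to 183 CPM) and TRAP1 (123 to 176 CPM) overlapped in replicate 1, and those of TRAP1 and LONP1 in replicate 2. For HSPA9 and PHB, and for AFG3L2 and CLPX, they overlapped in neither library. In ranks over the 16465 IDs with any count, 4 of the 10 genes stood among the 1000 highest, and CLPP stood at 6386. The median of the 10 mean CPM values was 113, against 39.8 for the 6953 IDs with at least 20 summed counts.

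The libraries were then compared for each gene, as the ratio of replicate 1 over replicate 2. Library sizes were scaled by TMM, which assumes that most IDs do not differ. After this scaling the median log2 ratio of the 2239 IDs with at least 100 summed counts was 0.00, against 0.18 by library size alone. The design holds 1 group, so this comparison measures how repeatable the counts were, and no p-value was computed. Each gene was given a 95% conditional exact binomial interval of its ratio.

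Of the 7 genes with at least 100 summed counts, 5 differed between the libraries by 1.02-fold to 1.10-fold after TMM scaling. They were grouped after their values were seen, and the share of the 2239 IDs at that minimum within the same range was not computed. By library size all 5 lay beyond that range, at 1.11-fold to 1.25-fold. Their TMM-scaled log2 ratios were 0.06 for HSPD1 (interval -0.21 to 0.35), 0.14 for HSPA9 (-0.14 to 0.42), 0.07 for TRAP1 (-0.35 to 0.50), 0.03 for LONP1 (-0.49 to 0.57) and -0.02 for PHB (-0.38 to 0.32). HSPE1 was also near equal, at 0.03, but its few counts left an interval of -0.99 to 1.03. For these 6 genes the interval held equal levels after TMM scaling. By library size that of HSPA9 did not, at 0.32 (0.04 to 0.60), and the sign of PHB turned, at 0.15.

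PHB2, AFG3L2 and CLPX were lower in replicate 1 than in replicate 2, with 95% intervals that left out equal levels. PHB2 had 146 TMM-scaled CPM in replicate 1 and 202 in replicate 2, which gave a log2 ratio of -0.47, with an interval of -0.84 to -0.10. AFG3L2 had 54.3 and 94.8 TMM-scaled CPM, a log2 ratio of -0.80 (-1.38 to -0.21). CLPX had 22.8 and 48.7 TMM-scaled CPM, a log2 ratio of -1.10 (-1.98 to -0.23). CLPP differed most in the other direction, at 21.7 and 8.70 TMM-scaled CPM and a log2 ratio of 1.32, but its interval of -0.14 to 3.09 held equal levels (0.04 to 3.27 by library size, which did not). For PHB2 the interval held equal levels under library-size scaling, at -0.29 (-0.66 to 0.08). With 99% intervals those of PHB2 (-0.95 to 0.01) and CLPX (-2.26 to 0.03) held equal levels, and that of AFG3L2 (-1.55 to -0.03) did not.

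**Figure D2:**
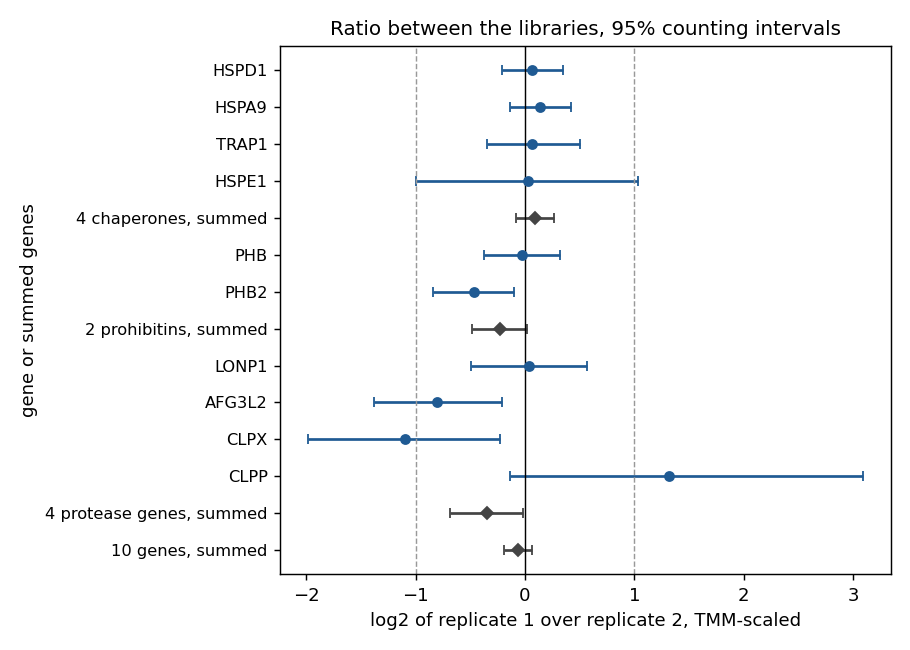
Log2 ratio of replicate 1 over replicate 2 after TMM scaling (horizontal axis) for each gene (blue circles) and for summed genes (grey diamonds), with 95% exact intervals as bars and dashed lines at 2-fold. The intervals of PHB2, AFG3L2, CLPX and the 4 protease genes summed lie wholly below 0, and that of the 10 genes summed, -0.19 to 0.07, spans 0.

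Each of these counts was read against the whole table. The interval lay wholly on the side of replicate 2 for 3 of the 10 genes, against 16.1% of the 6953 IDs that reached 20 summed counts. It lay on the side of replicate 1 for 0 of 10, against 10.5% of those IDs. Fewer counts give wider intervals, so these shares depend on depth. At least 100 summed counts were reached by 7 of the 10 genes and by 2239 of the 6953 IDs. The ratio lay beyond 1.5-fold towards replicate 2 for CLPX and AFG3L2, against 22.3% of IDs, and towards replicate 1 for CLPP alone, against 15.9%. Beyond 2-fold lay CLPX towards replicate 2, against 9.69% of IDs, and CLPP towards replicate 1, against 6.37%. A ratio above equal levels was found for 6 of 10 genes, against 45.9% of IDs. Of the 7 genes with at least 100 summed counts, 0 had an interval wholly beyond 2-fold, as did 0.849% of the 2239 IDs at that minimum.

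The median absolute log2 ratio of the 10 genes was 0.10, against 0.44 for 6946 IDs of at least 20 summed counts with a value above 0 in both libraries. For the 7 genes with at least 100 summed counts it was 0.07, against 0.30 for the 2239 IDs at that minimum. The 10 genes have more counts than a typical ID of the table, and ratios of sparse IDs spread more widely. The medians of the genes moved with the scaling: by library size they were 0.27 for all 10 genes, against 0.45 for the IDs, and 0.25 for the 7 genes, against 0.33. With TMM factors from IDs of at least 20 summed counts they were 0.17 and 0.14. These medians are a description of 10 chosen genes and carry no test.

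**Figure D3:**
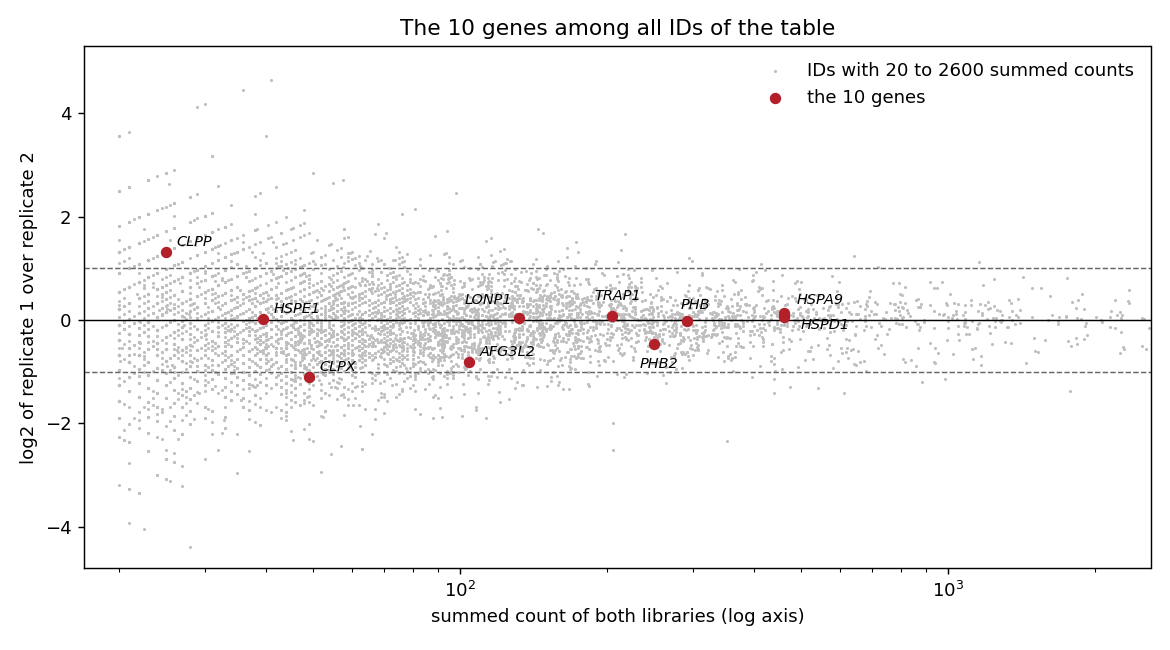
Log2 ratio of replicate 1 over replicate 2 after TMM scaling (vertical axis) against the summed count of both libraries (log axis) for the 10 genes (red) and for other IDs with 20 to 2600 summed counts and a count above 0 in both libraries (grey), with dashed lines at 2-fold. The genes with most counts, HSPD1 and HSPA9, lie near 0, and only CLPP and CLPX, at 25 and 49 summed counts, lie beyond the dashed lines.

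Summed by role, the 4 chaperones held 737.5 counts in replicate 1 and 431.5 in replicate 2. They made up 60.3% of the counts of the 10 genes in replicate 1 (exact interval 57.5 to 63.0) and 54.0% in replicate 2 (50.6 to 57.6). The prohibitins held 313.5 and 229.5 counts, or 25.6% and 28.7%, and the 4 protease genes held 173 and 137.5 counts, or 14.1% and 17.2%. The chaperone part was the larger one in replicate 1, and the intervals of the 2 libraries overlapped slightly.

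These parts do not depend on the scaling between libraries. The odds of a count falling on a chaperone and not on another of the 10 genes were 1.29 times as high in replicate 1 as in replicate 2 (95% conditional exact interval 1.07 to 1.55). The same quotient was 0.789 for the protease genes (0.613 to 1.01) and 0.854 for the prohibitins (0.696 to 1.05), and both intervals held equal odds. The 3 quotients share the same counts and were not adjusted for their number. In TMM-scaled ratios, the protease genes summed had a log2 ratio of -0.35 (-0.69 to -0.02), which held equal levels by library size, at -0.17 (-0.51 to 0.16). The chaperones summed had a log2 ratio of 0.09 (-0.08 to 0.27), and by library size one of 0.27 (0.10 to 0.44), which left out equal levels. All 10 genes summed had a log2 ratio of -0.06 (-0.19 to 0.07), with the sign turned by library size, at 0.11 (-0.01 to 0.25).

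Ratios between partner genes were formed within each library, so that the scaling between libraries drops out. They are ratios of counts and carry the unequal coding lengths of the partners, which are the same in both libraries. The quotient of the 2 libraries' ratios is therefore free of length. The ratios were formed for 7 pairs, with intervals not adjusted for their number.

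HSPD1 had 11.8 times the counts of HSPE1 in replicate 1 (exact interval 7.96 to 19.2) and 11.5 times in replicate 2 (6.80 to 21.1). The quotient was 1.02, with a conditional exact interval of 0.497 to 2.15, so a change of up to about that size could not be seen at this depth. HSPA9 had 1.02 times the counts of HSPD1 in replicate 1 and 0.965 times in replicate 2, a quotient of 1.06 (0.799 to 1.39). TRAP1 had 0.436 and 0.458 times the counts of HSPA9, a quotient of 0.951 (0.669 to 1.36). For these 3 pairs among the chaperones the interval of the quotient held 1.

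The other 4 pairs joined prohibitins or protease genes. PHB had 1.33 times the counts of PHB2 in replicate 1 (1.06 to 1.68) and 0.978 times in replicate 2 (0.752 to 1.28), a quotient of 1.36 whose interval, 0.951 to 1.94, held 1. LONP1 had 1.64 times the counts of AFG3L2 in replicate 1 and 0.917 times in replicate 2, a quotient of 1.79 (1.02 to 3.08). CLPX had 1.05 times the counts of CLPP in replicate 1 (0.542 to 2.04) and 5.60 times in replicate 2 (2.13 to 18.6), a quotient of 0.188 (0.0482 to 0.640). LONP1 over CLPP was 4.10 in replicate 1 and 10.0 in replicate 2, a quotient of 0.410 (0.114 to 1.23). The interval of the quotient left out 1 for 2 of the 7 pairs, CLPX over CLPP and LONP1 over AFG3L2. The first of these rests on 5 counts of CLPP in replicate 2. No share was formed over other pairs of IDs, so the count is not read as a result about these pairs. Of single IDs with at least 20 summed counts, 10.5% had a TMM-scaled interval wholly towards replicate 1 and 16.1% wholly towards replicate 2.

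**Figure D4:**
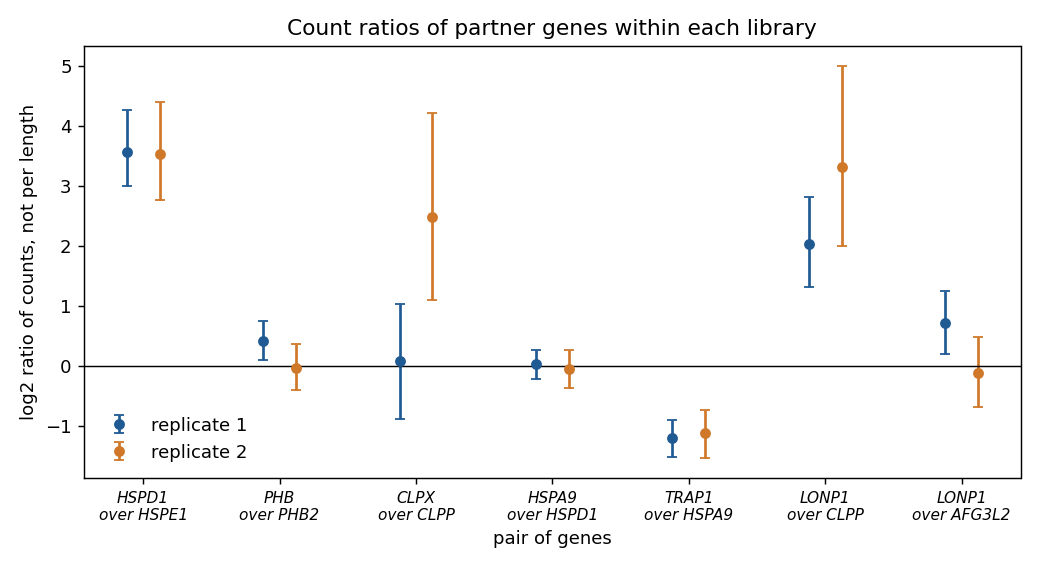
Log2 ratio of counts, not per length, for 7 pairs of genes (horizontal axis) in replicate 1 (blue) and replicate 2 (orange), with 95% exact intervals as bars. The libraries lie close together for HSPD1 over HSPE1, HSPA9 over HSPD1 and TRAP1 over HSPA9, and furthest apart for CLPX over CLPP, at count ratios of 1.05 and 5.60.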

How the data were processed

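The authors deposited 1 table of estimated counts of fragments of 27 to 29 nt per Ensembl gene ID, per the labels, with no scaling. Per the submitters' processing notes, fragments were placed on hg19, while the sources used here give no aligner, counter, annotation or strand setting. Of the values above 0, 14.6% were not whole (by more than 0.001), among them 7 of the 20 values of the 10 genes. CPM and shares used the deposited values over each library's total, and exact intervals at 95% used counts rounded to whole numbers, as did scaling. TMM factors came from edgeR 4.0.16 (R 4.3.3) over all IDs with at least 100 summed counts, 1.06 for replicate 1 and 0.940 for replicate 2. Other steps used Python 3.11.15, scipy 1.17.1, numpy 2.4.6 and pandas 2.3.3. DESeq2 1.42.0 size factors were an alternative. RefSeq names and promoters (GRCh38.p14) were matched by symbol for 10 and 9 genes, PHB under its RefSeq symbol PHB1. Coding lengths were not available here, so the planned footprint density per codon, the planned list of other pathway genes and the cell line markers were not used, and partner ratios were taken on counts. The genes, roles and pairs were chosen with earlier results of these data known. All 10 genes are named, and no gene was named for likeness of pattern, since 2 libraries give each gene only 1 difference.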

Additional observations from a re-analysis of the deposited data

How the results depend on the processing

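The share of counts held by the 10 genes was 0.136%, 0.171% once the total left out the 2 highest IDs (by construction), and 0.131% to 0.141% with either replicate left out. The summed log2 ratio of -0.06 became 0.11 by library size and lay between -0.07 and 0.00 under the other alternatives run. The count of genes with an interval towards replicate 2 was 3, 2 (CLPX and AFG3L2) by library size, and 1 (AFG3L2) with 99% intervals. Towards replicate 1 it was 0, and 2 (HSPA9 and CLPP) by library size. The share of all IDs passing this rule was not computed under these alternatives. The interval of 0 of the 7 genes with at least 100 summed counts lay wholly beyond 2-fold (0 of 10 with at least 20 summed counts) or 1.5-fold under the alternatives run. The protease genes summed (-0.35) also held equal levels with TMM factors from IDs of at least 20 summed counts, at -0.28 (-0.62 to 0.05), and with 99% intervals. Over all IDs, calls beyond 2-fold (4 higher in replicate 1 and 15 in replicate 2) became 11 and 7 by library size, 29 and 56 with at least 20 summed counts, 31 and 70 at 1.5-fold, and 1 and 9 with 99% intervals. With replicates left out, mean log2 count ratios ranged from 3.53 to 3.56 (HSPD1 over HSPE1), -0.03 to 0.41 (PHB over PHB2), 0.07 to 2.49 (CLPX over CLPP), -0.05 to 0.03 (HSPA9 over HSPD1), -1.20 to -1.13 (TRAP1 over HSPA9), 2.04 to 3.32 (LONP1 over CLPP) and -0.12 to 0.71 (LONP1 over AFG3L2). Alternatives on length were not run, for want of coding lengths. No paired analysis was possible because there was 1 group. Depth limits HSPE1, CLPX and CLPP, each under 100 summed counts.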

Other observations

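Non-whole values of the 10 genes often stood beside other non-whole values in the table. In replicate 1, HSPD1 (289.5) and HSPE1 (24.5) hold adjacent places and both ended in 0.5, and PHB2 (134.5) stood beside an ID with 1.5. In replicate 2, PHB (113.5) stood beside an ID with 34.5 and AFG3L2 (54.5) beside one with 74.5. The non-whole values of TRAP1, 128.5 in replicate 1 and 76.5 in replicate 2, had no such neighbour. In all, 5 of the 7 non-whole values of these genes had one, or 71.4%, against 70.5% of the 4195 non-whole values of the table. In RefSeq, protein-coding genes overlap HSPE1 (HSPE1-MOB4), TRAP1 (DNASE1), LONP1 (RPL36) and AFG3L2 (TUBB6). Whether fragments were divided between neighbouring or overlapping genes was not tested.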
